A study of Mus musculus with 9 samples.

Results

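Antiviral interferon-stimulated genes are the genes that cells switch on when an interferon reaches them. The 33 genes described here were chosen by name, as a list of antiviral interferon-stimulated genes with their transcription factors and nucleic acid sensors, and all 33 were found among the 45904 identifiers of the deposited table. They were measured by sequencing messenger RNA from the dorsal root ganglia of the sciatic nerve, which hold the cell bodies of sensory neurons with their satellite glia, and the ganglia were taken whole from C57BL/6 mice. There were 3 groups of 3 libraries: young mice of 8 to 10 weeks after sham surgery, aged mice of 20 to 22 months after sham surgery, and aged mice of 20 to 22 months after sciatic nerve injury. No young injured group was analysed here, and the labels name no transgene or drug in any group. Every library pooled the ganglia of 2 mice, collected 24 h after surgery. Since the tissue was whole, fewer cells of a type and less RNA per cell cannot be told apart.

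Type I interferons bind a receptor of the chains IFNAR1 and IFNAR2, whose kinases JAK1 and TYK2 phosphorylate STAT2. With IRF9 it is part of a complex that binds the interferon-stimulated response element in the promoters of its targets. Interferon gamma acts through another receptor, and many of its targets hold the gamma-activated site. The targets include sensors of foreign nucleic acid, enzymes that degrade viral RNA or block its translation, and proteins that feed back on the pathway itself. In ganglia such genes can be expressed by neurons, glia, endothelial cells and leukocytes.

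The promoter letters are shown here because the same element occurs both in members that rose after injury and in members that did not pass the test. In the RefSeq promoter table (GRCm38.p6, 250 bases before to 50 after each start), 23 members had an entry, and Oas2, Mx1, Mx2, Usp18, Ifi27l2a, Zbp1, Dhx58, Rtp4, Parp9 and Parp14 had none. The response element was searched on both strands as GAAA, any 2 bases and GAAA again. It occurred in the windows of 12 of the 23 members (52.2%), and in 9 of them it lay before the start. Counted by gene in the same way, it occurred in 3.99% of all 27025 genes with an entry. Counted by promoter, it occurred in 3.44% of all 32851 promoters of that length. Stretches of 100 bases are given 5′ to 3′ on the strand of the gene, with the bases of each match in capitals. Where matches overlap, their capitals run together. They lie at chr10:128270248-128270347 (+ strand, Stat2), chr12:26456518-26456617 (- strand, Rsad2), chr19:34640749-34640848 (+ strand, Ifit1), chr7:104465194-104465293 (- strand, Trim30a), chr4:156200836-156200935 (- strand, Isg15), chr19:34583345-34583444 (+ strand, Ifit3) and chr8:71537545-71537644 (- strand, Bst2), and no exon is annotated in them. The first 4 belong to genes called higher after injury, and the last 3 to genes that were not.
Stat2: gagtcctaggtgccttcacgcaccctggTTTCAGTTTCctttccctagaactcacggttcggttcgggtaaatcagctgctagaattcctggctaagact
Rsad2: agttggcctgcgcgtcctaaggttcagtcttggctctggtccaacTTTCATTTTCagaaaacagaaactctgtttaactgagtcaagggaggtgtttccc
Ifit1: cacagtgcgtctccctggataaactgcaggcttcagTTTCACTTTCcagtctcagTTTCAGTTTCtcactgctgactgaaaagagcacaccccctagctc
Trim30a: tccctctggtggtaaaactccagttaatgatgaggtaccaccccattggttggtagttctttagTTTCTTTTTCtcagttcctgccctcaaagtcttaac
Isg15: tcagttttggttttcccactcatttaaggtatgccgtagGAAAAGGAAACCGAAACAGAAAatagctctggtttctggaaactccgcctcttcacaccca
Ifit3: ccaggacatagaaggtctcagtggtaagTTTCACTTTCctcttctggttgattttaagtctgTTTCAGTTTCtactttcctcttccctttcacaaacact
Bst2: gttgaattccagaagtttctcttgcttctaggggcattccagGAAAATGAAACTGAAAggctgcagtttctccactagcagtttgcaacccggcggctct

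Ifit1 and Ifit3 each held 2 matches and Isg15 held 3 overlapping ones. Of the 7 called members with an entry 5 held the element, and of the 15 members tested but not called with an entry 6 held it. The gamma-activated site was searched as TTC, any 3 bases and GAA, which reads the same on both strands. It occurred in 6 of the 23 members (26.1%), in 9.55% of all genes with an entry and in 8.30% of all promoters. Irf1, a gene known to respond to interferon gamma, held 1 such match 90 bases before its start. These matches describe the letters in these windows and were not tested as sites of binding.

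**Figure D1:**
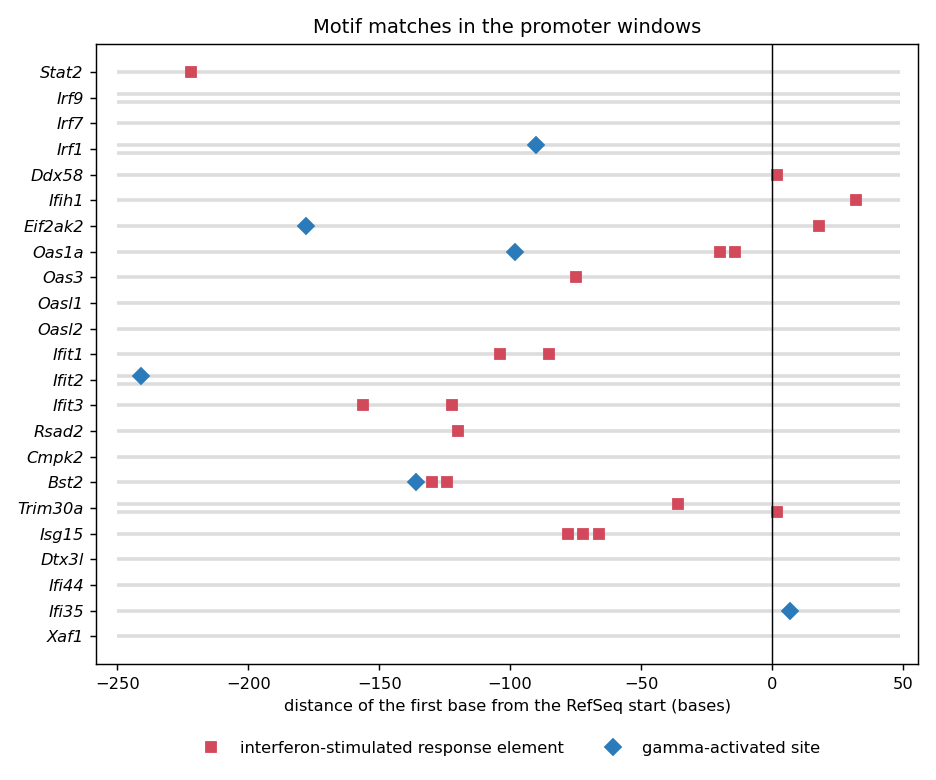
Position of each motif match in the promoter windows of the 23 members with an entry (grey lines, 1 per window), as the distance in bases of its first base from the RefSeq start. Red squares are interferon-stimulated response elements and blue diamonds gamma-activated sites; most of the red squares lie before the start, and 11 members hold no red square.

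Levels are given in FPKM, which count fragments relative to gene length and to library depth, so that levels can be compared between genes. Of the members, 5 had a mean over the 9 libraries under 1 FPKM, 17 between 1 and 10 FPKM and 11 at 10 FPKM or more. Genes that averaged 0.2 FPKM or more were tested with limma, a linear model with a moderated spread per gene, on log2(FPKM + 0.1), and called at a Benjamini-Hochberg adjusted p under 0.05 over all 17601 genes tested. Log2 changes are on that scale, and for genes of low level they are smaller than the change in FPKM. Of the members 32 were tested, and Oas3, at a mean of 0.161 FPKM, was not.

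The libraries differed partly along the groups and partly within them. From steps in the FPKM values, whole reads could be recovered, known for each gene up to a common factor, and they came to at least about 10200000 to 15000000 reads per library in tested genes. Sensory neuron genes such as Prph and Scn10a and Schwann cell genes such as Pmp22 were high in all 9 libraries. Levels of Xist and of Y-linked genes show that the young pools held male RNA and the aged pools female RNA, except aged sham replicate 1, which held both: its Y-linked genes stood at 67.9% of the young mean. Age and sex therefore cannot be told apart in any comparison with the young group. Atf3, the transcription factor that marks injured neurons, was at 23.5, 42.3 and 16.3 FPKM in young sham, 95.6, 27.1 and 27.3 FPKM in aged sham and 278, 192 and 271 FPKM in aged injury. Aged sham replicate 2 and aged injury replicate 2 were the richest in lymphocyte transcripts, and young sham replicate 3 was the lowest of the 9 libraries in 24 of the 33 members.

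Aged injury was compared with aged sham to ask what happens in aged ganglia 24 h after injury of the nerve. Of 32 members tested, 9 rose, 0 fell and 23 did not pass the test, while limma voom on the recovered reads called 16 higher. The 9 were Rsad2, Ifit1, Oasl1, Rtp4, Mx2, Trim30a, Stat2, Irf9 and Eif2ak2, and by their log2 changes they rose between 1.36-fold and 2.54-fold. This was 28.1% of the members, against 4.11% of all genes called in either direction, 2.45% called higher and 1.65% called lower. The log2 change was above 0 in 30 of 32 members and in 47.8% of all genes tested, with medians of 0.46 and -0.01. In 22 members every aged injury library was above every aged sham library, in 1 (Cmpk2) below, and in 9 the groups overlapped. Over all genes, 11.7% did not overlap and were higher and 13.7% did not overlap and were lower.

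The count of calls changed with the libraries used. With aged sham replicate 3 or aged injury replicate 3 left out no member was called by limma, although 18 and 19 members had an unadjusted p under 0.05. The count was 1 without aged injury replicate 1, 2 without aged sham replicate 2 or aged injury replicate 2, and 5 without young sham replicate 1 or without aged sham replicate 1, which held male as well as female RNA. Over the 9 fits that each left out 1 library, the median log2 change lay between 0.42 and 0.53 and 28 to 30 members stayed above 0.

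**Figure D2:**
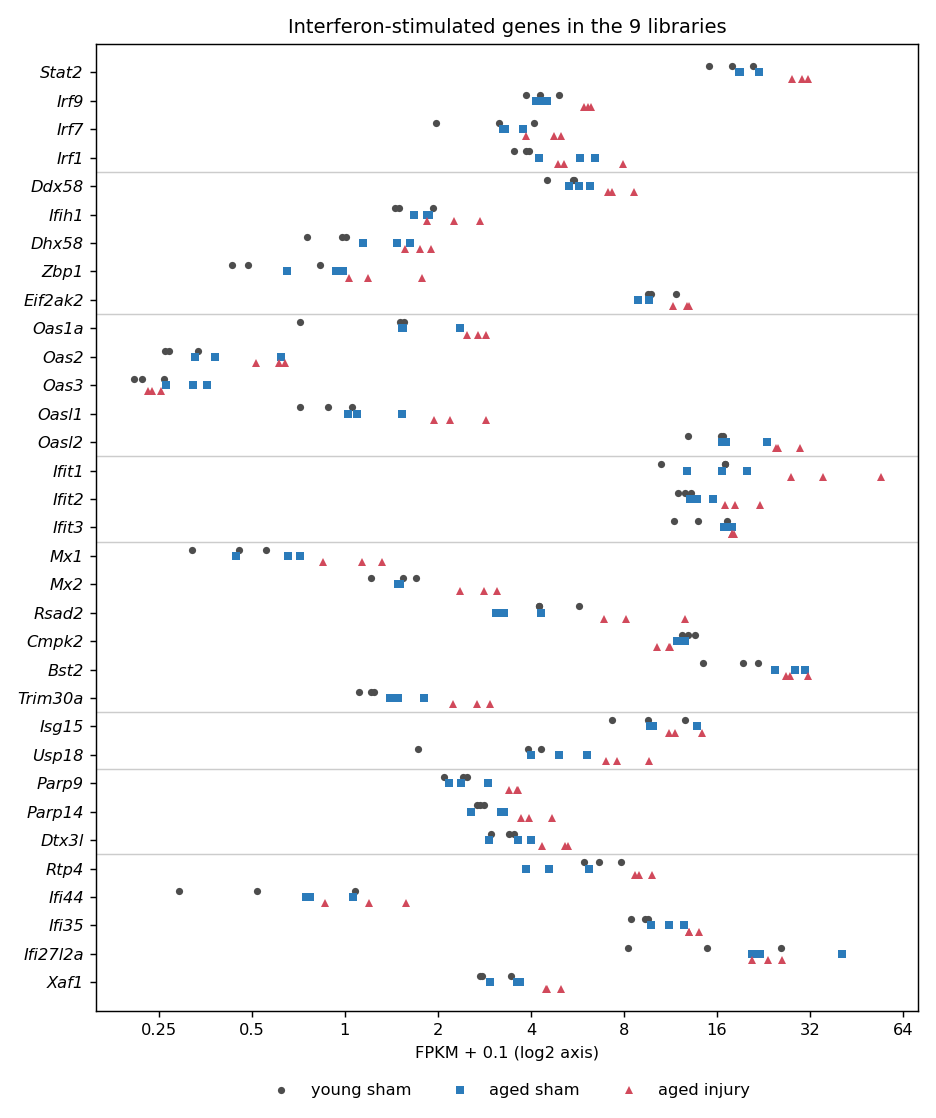
FPKM + 0.1 of each of the 33 members (rows, grouped by role) in the 9 libraries on a log2 axis, with young sham as black circles, aged sham as blue squares and aged injury as red triangles. For most members the red triangles lie to the right of the blue squares, while in 9 tested members, Ifit3, Bst2, Isg15 and Ifi27l2a among them, they overlap and in Cmpk2 and Oas3 they lie to the left.

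Among the transcription factors, the STAT2 and IRF9 parts of the interferon-stimulated complex rose after injury. Where 2 sets of 3 values follow each other for this comparison, aged sham replicates 1 to 3 come first and aged injury replicates 1 to 3 second. Stat2 (chromosome 10, 128270559 to 128292849 on mm10, + strand) was at 21.7, 18.7 and 18.9 FPKM in aged sham against 31.3, 28.0 and 30.1 FPKM in aged injury. All 3 injury libraries were above all 3 sham libraries, and the mean rose from 19.8 ± 1.70 to 29.8 ± 1.70 FPKM (SD, n = 3 each). The log2 change was 0.59 (SE 0.12, adjusted p = 0.0262 with limma). Irf9 (chromosome 14, 55603571 to 55610030, + strand) was at 4.07, 4.39 and 4.20 FPKM in aged sham against 6.02, 6.16 and 5.85 FPKM in aged injury. Its groups were narrow and far apart, and it rose by 0.50 on the log2 scale (SE 0.095; adjusted p = 0.0230 with limma). Irf7, which amplifies the production of type I interferon, was at 3.68, 3.15 and 3.19 FPKM in aged sham against 4.92, 4.66 and 3.77 FPKM in aged injury; the groups did not overlap, but it was not called. Irf1 did not separate the groups, with 4.14, 6.34 and 5.66 FPKM in aged sham and 5.03, 7.85 and 4.78 FPKM in aged injury.

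Of the 5 sensors, 1 rose after injury and 4 did not pass the test. Eif2ak2 (chromosome 17, 78852564 to 78882573, - strand) encodes PKR, a kinase that is activated by double-stranded RNA and stops translation. It was at 8.81, 9.54 and 8.76 FPKM in aged sham against 12.9, 11.4 and 12.7 FPKM in aged injury, without overlap, and rose by 0.44 on the log2 scale (SE 0.092; adjusted p = 0.0330 with limma). Young sham lay between, at 11.7, 9.68 and 9.46 FPKM, and overlapped both groups in part. Ddx58 encodes RIG-I, a sensor of viral RNA ends, and its levels of 5.20, 5.61 and 6.09 FPKM after sham were all below the 8.53, 7.21 and 7.02 FPKM after injury (adjusted p = 0.0716). Zbp1, a sensor of Z-form nucleic acid that can start cell death, was low, at 0.550, 0.889 and 0.836 FPKM and then 0.930, 1.67 and 1.09 FPKM, again without overlap. Ifih1 (MDA5, a sensor of long double-stranded RNA) and Dhx58 (LGP2, a regulator of both RNA sensors) had means of 1.70 and 1.31 FPKM in aged sham and 2.18 and 1.64 FPKM in aged injury, with groups that overlapped.

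The oligoadenylate synthetases make a messenger that activates an RNA-degrading enzyme. Of the 4 tested, Oasl1, a relative without that activity that is known to hold down translation of Irf7, rose and 3 did not pass. Oasl1 (chromosome 5, 114923240 to 114937915, + strand) was at 1.43, 0.997 and 0.923 FPKM in aged sham against 2.75, 1.85 and 2.09 FPKM in aged injury. The groups did not overlap, and the log2 change was 0.94 (SE 0.22; adjusted p = 0.0497 with limma), and it was called in 4 of the 20 alternative analyses. Its neighbour Oasl2 (chromosome 5, 114896936 to 114912234) stood at 16.5, 16.9 and 23.0 FPKM and then at 29.7, 24.8 and 25.0 FPKM (adjusted p = 0.0982). Oas1a was at 2.27, 1.43 and 1.44 FPKM after sham and 2.76, 2.59 and 2.38 FPKM after injury, and Oas2 overlapped, at means of 0.343 and 0.490 FPKM. Of 100-base windows of Oas1a, 40.9% also occur in Oas1g, so reads of the pair may have been shared or dropped. Oas3 rests on 7 to 15 recovered reads per library, with 0.163, 0.257 and 0.223 FPKM after sham and 0.130, 0.154 and 0.138 FPKM after injury, lower and without overlap, but untested.

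The 3 IFIT genes lie in 1 cluster on chromosome 19 and encode proteins that bind foreign RNA and block its translation. After injury 1 of the 3 rose and 2 did not pass the test. Ifit1 (34640871 to 34650009, + strand) was at 19.9, 12.7 and 16.5 FPKM in aged sham against 54.2, 27.7 and 35.2 FPKM in aged injury. Every injury library was above every sham library, and aged injury replicate 1 was far above the others. The mean rose from 16.3 ± 3.57 to 39.0 ± 13.6 FPKM. The log2 change was 1.22 (SE 0.27, adjusted p = 0.0425 with limma), and Ifit1 was called in 8 of the 20 alternatives. Ifit2 (34550694 to 34576419) was at 15.4, 13.7 and 12.9 FPKM and then at 21.8, 18.2 and 16.8 FPKM, without overlap, and just missed the threshold (adjusted p = 0.0531). Ifit3 (34583531 to 34588731), which lies between them, was nearly even across the aged libraries, at 16.7, 16.9 and 17.8 FPKM in aged sham against 17.8, 17.7 and 18.0 FPKM in aged injury. Its log2 change was 0.06 (SE 0.12; adjusted p = 0.835 with limma). Of its 100-base windows, 31.7% also occur in the neighbouring copy Ifit3b, and whether that touches its values was not tested.

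The other antiviral effectors held the largest log2 change among the 32 members in the injury comparison. Rsad2 (chromosome 12, 26442746 to 26456452, - strand) encodes viperin, an enzyme that makes a nucleotide which ends viral RNA chains. It was at 4.20, 3.17 and 2.98 FPKM in aged sham against 12.5, 6.79 and 8.02 FPKM in aged injury. No library overlapped, and the mean rose from 3.45 ± 0.657 to 9.12 ± 3.03 FPKM. The log2 change of Rsad2 was 1.34, which is 2.54-fold on that scale (SE 0.23, adjusted p = 0.0159 with limma). Cmpk2, a mitochondrial nucleotide kinase, is its head-to-head neighbour (26469204 to 26479837, + strand) and was lower in every injury library than in any sham library. It was at 12.2, 12.5 and 11.8 FPKM after sham and at 11.1, 11.2 and 10.2 FPKM after injury, a log2 change of -0.17 that was not called (SE 0.064; adjusted p = 0.189 with limma).

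The Mx GTPases trap viral nucleoproteins, and many laboratory strains carry defective alleles of them. Mx2 (chromosome 16, 97535308 to 97560900, + strand) was nearly even in aged sham, at 1.38, 1.41 and 1.38 FPKM, and was at 3.0, 2.26 and 2.72 FPKM in aged injury. It rose by 0.88 on the log2 scale (SE 0.15; adjusted p = 0.0175 with limma). Mx1 was lower, at 0.554, 0.344 and 0.618 FPKM and then at 1.22, 1.04 and 0.748 FPKM; the groups did not overlap, and it was not called. Trim30a (chromosome 7, 104409025 to 104465193, - strand), a ubiquitin ligase that restrains Toll-like receptor signalling, was at 1.39, 1.70 and 1.30 FPKM and then at 2.58, 2.84 and 2.14 FPKM. Its log2 change was 0.74 (SE 0.15; adjusted p = 0.0277 with limma). Bst2, or tetherin, which holds budding virus on the cell surface, did not separate the groups, with 28.5, 24.5 and 30.8 FPKM after sham and 26.6, 31.4 and 27.5 FPKM after injury.

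ISG15 is a ubiquitin-like protein, and USP18 removes it from its targets and blocks signalling at the type I interferon receptor. Neither gene was called after injury. Isg15 was at 9.86, 9.60 and 13.7 FPKM in aged sham against 11.6, 11.1 and 14.2 FPKM in aged injury, with groups that overlapped. Usp18 was at 4.83, 3.90 and 5.97 FPKM and then at 9.55, 6.88 and 7.52 FPKM; all injury libraries were above all sham libraries, but the spread was wide (log2 change 0.70, SE 0.32, limma adjusted p = 0.266).

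Parp9, Dtx3l and Parp14 lie close together on chromosome 16 and encode ADP-ribosyl transferases and a ubiquitin ligase that partners PARP9. All 3 were higher after injury without overlap, and none passed the test. Parp9 was at 2.07, 2.80 and 2.28 FPKM and then at 3.54, 3.50 and 3.29 FPKM (log2 change 0.52, limma adjusted p = 0.0509). Dtx3l was at 2.82, 3.54 and 3.89 FPKM and then at 5.16, 5.07 and 4.26 FPKM, and Parp14 at 2.46, 3.1 and 3.16 FPKM and then at 3.62, 4.59 and 3.84 FPKM. Exons of Parp9 and Dtx3l share 458 bases on opposite strands, and the handling of strand is not given in the sources used here, so reads from the shared bases may have been counted for either gene.

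Of the 5 other induced genes, 1 rose after injury. Rtp4 (chromosome 16, 23520291 to 23614222, + strand) encodes a membrane-associated protein known both as a chaperone of opioid receptors and as an antiviral factor, and 11.2% of its 100-base windows also occur in Gm45338. It was at 6.07, 3.76 and 4.49 FPKM in aged sham against 9.72, 8.58 and 8.87 FPKM in aged injury. The groups were well apart, and it rose by 0.93 on the log2 scale (SE 0.16; adjusted p = 0.0178 with limma). Xaf1, which promotes apoptosis, stood at 3.58, 3.50 and 2.85 FPKM and then at 4.90, 4.37 and 4.41 FPKM, and Ifi35, a protein of the interferon response, at 12.4, 11.1 and 9.71 FPKM and then at 13.9, 12.8 and 12.9 FPKM. Both were higher without overlap and not called. Ifi35 shares 290 exon bases (16.8%) with the antisense gene Gm11626, and with strand handling not given, reads from either may have been counted for it. Ifi44 ranged from 0.648 to 0.965 FPKM after sham and from 0.760 to 1.48 FPKM after injury. Ifi27l2a had a log2 change of -0.19, and aged sham replicate 1, at 40.4 FPKM, was the highest of all libraries.

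**Figure D3:**
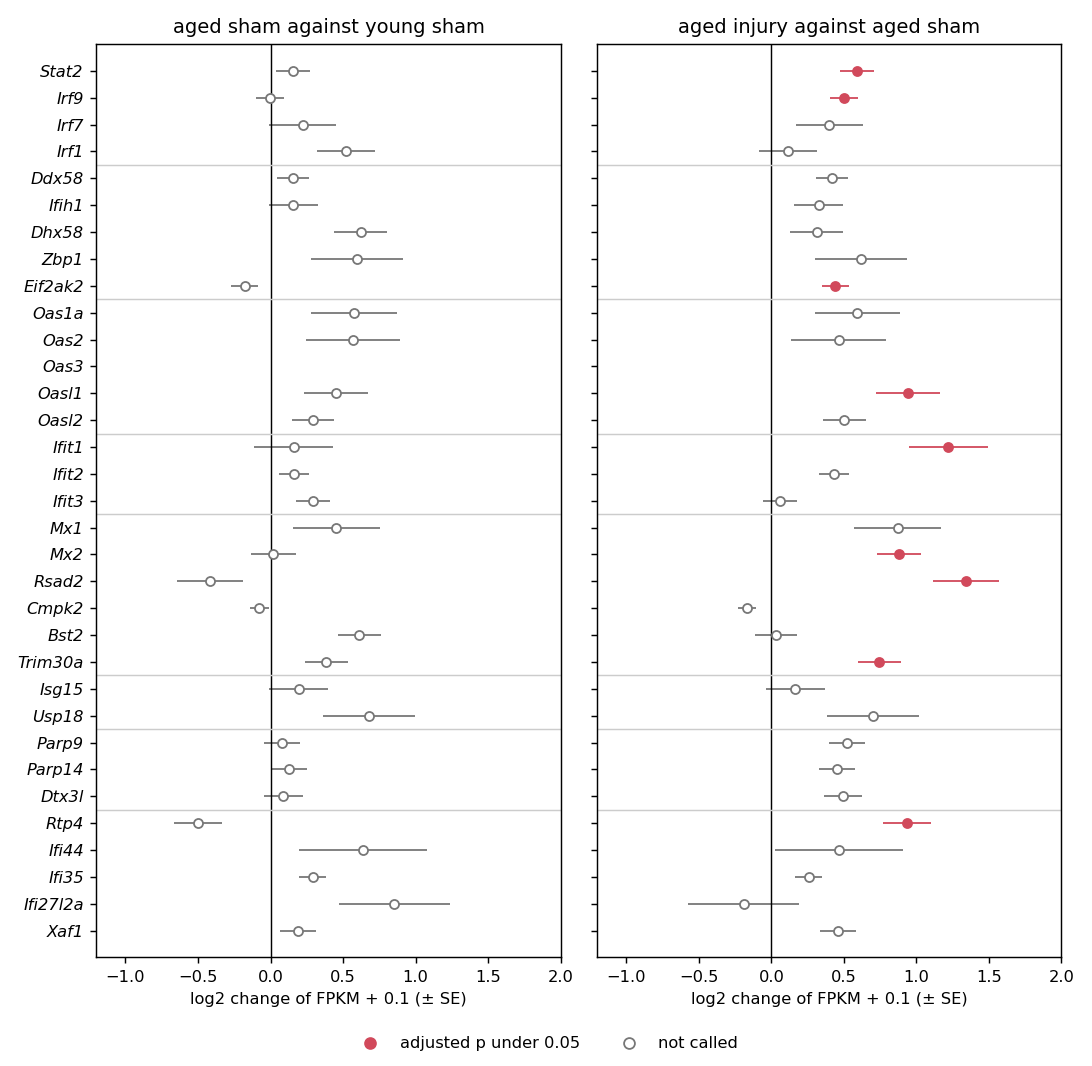
Log2 change of FPKM + 0.1 with its SE for the 32 tested members (rows, grouped by role), for aged sham against young sham (left) and aged injury against aged sham (right); filled red points have an adjusted p under 0.05. On the right 30 of 32 points lie above 0 and 9 are filled, and on the left 27 lie above 0 and none is filled.

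The comparison of aged with young sham asked what differs without injury. A change with age means this comparison, in which age and sex cannot be told apart. None of the 32 tested members was called by limma, against 4.02% of all genes (2.53% higher and 1.49% lower), while 7 had an unadjusted p under 0.05, and limma voom on recovered reads called 1 (Bst2). The log2 change was above 0 in 27 members and in 56.7% of all genes, with medians of 0.21 and 0.05. In 5 members every aged library was above every young one, and 27 overlapped. Over all genes, 17.7% did not overlap and were higher in aged sham. When libraries were scaled to equal medians, the calls over all genes turned from 445 higher and 262 lower to 281 higher and 536 lower, and still no member was called by limma (7 at an unadjusted p under 0.05). The 5 were Bst2, Dhx58, Ifi35, Trim30a and Irf1. Without aged sham replicate 1, the pool with male RNA, 1 member was called, Rtp4, and it fell.

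Bst2 came closest to the threshold. It was at 21.6, 19.3 and 14.3 FPKM in young sham against 28.5, 24.5 and 30.8 FPKM in aged sham, a difference of 0.61 on the log2 scale (SE 0.15; adjusted p = 0.0520 with limma). Dhx58 was at 0.881, 0.910 and 0.657 FPKM and then at 1.38, 1.04 and 1.52 FPKM (log2 change 0.62, limma adjusted p = 0.0780), and it shares 141 exon bases (4.31%) with its antisense gene Dhx58os. Both had reached, in aged sham, levels that overlapped those of aged injury. Ifi35 was at 9.22, 9.46 and 8.35 FPKM in young sham (log2 change 0.29, limma adjusted p = 0.0965), Trim30a at 1.12, 1.15 and 1.01 FPKM (log2 change 0.39, limma adjusted p = 0.140) and Irf1 at 3.83, 3.74 and 3.42 FPKM (log2 change 0.52, limma adjusted p = 0.144).

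Some members had lower values in aged than in young sham. Rtp4 was at 7.71, 5.83 and 6.55 FPKM in young sham against 6.07, 3.76 and 4.49 FPKM in aged sham, a difference of -0.50 on the log2 scale (SE 0.16; adjusted p = 0.102 with limma). Rsad2, at 4.14, 5.61 and 4.14 FPKM in young sham, had a log2 change of -0.42 with groups that overlapped. Irf9 had a change of 0.00 at this precision, with 4.83, 4.17 and 3.76 FPKM in young sham, and Mx2 of 0.02, with 1.44, 1.60 and 1.11 FPKM. The remaining members overlapped between the groups, and in several young sham replicate 3 stood below the other young libraries. Usp18 was at 3.81, 4.23 and 1.62 FPKM, Ifi44 at 0.980, 0.421 and 0.190 FPKM and Ifi27l2a at 25.7, 14.8 and 8.13 FPKM in young sham.

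Aged injury against young sham combines age, sex and injury, which cannot be told apart there, and it shares its libraries with the other comparisons. Of the 32 members, 21 were higher, 1 was lower and 10 did not pass (68.8% called, against 13.1% of all genes, 8.2% higher and 4.89% lower). The log2 change was above 0 in 31 members and in 53.2% of all genes, with medians of 0.65 and 0.02. In 25 members every aged injury library was above every young one, and in 1, Cmpk2, below. Over all genes 19.9% were higher and 15.5% lower without overlap. The count fell to 11 without young sham replicate 3, was 12, 14 and 13 without aged injury replicates 1, 2 and 3, and was 8 without both libraries richest in lymphocyte transcripts.

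The smallest p among members belonged to Trim30a, which rose by 1.13 on the log2 scale (SE 0.15; adjusted p = 0.00281 with limma), called in all 20 alternatives. Stat2 (0.75, limma adjusted p = 0.00546), Oasl1 (1.39, limma adjusted p = 0.00615), Mx2 (0.90, limma adjusted p = 0.00818) and Ifi35 (0.55, limma adjusted p = 0.00822) were also called in each of them, with the limit on antisense reads given above for Ifi35. Ifit1 and Usp18 both had a log2 change of 1.38 (limma adjusted p = 0.0134 and 0.0247), and Mx1 one of 1.33 (limma adjusted p = 0.0228). Zbp1, Oas1a and Rsad2 rose by log2 changes of 1.21, 1.17 and 0.93 (limma adjusted p = 0.0359, 0.0330 and 0.0298). These calls were less stable: Oas1a was called in 9 and Rsad2 in 13 of the 20 alternatives. Zbp1 was called in 7 of the 19 alternatives that included it. Among the genes called here but not after injury were RIG-I (Ddx58, 0.57, limma adjusted p = 0.0124), Dhx58 (0.93, limma adjusted p = 0.0130), Bst2 (0.64, limma adjusted p = 0.0236), Ifit2 (0.59, limma adjusted p = 0.00881), Oasl2 (0.80, limma adjusted p = 0.0110) and Xaf1 (0.65, limma adjusted p = 0.0122). Parp9, Parp14 and Dtx3l rose by 0.61, 0.58 and 0.58 (limma adjusted p = 0.0155, 0.0178 and 0.0241). Irf9 rose by 0.50 (limma adjusted p = 0.0121).

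Cmpk2 was the member that fell, from 13.4, 12.2 and 12.8 FPKM in young sham to 11.1, 11.2 and 10.2 FPKM in aged injury, a difference of -0.25 on the log2 scale (SE 0.064; adjusted p = 0.0379 with limma). It was called in 12 of the 20 alternatives. Eif2ak2 and Rtp4, called after injury against aged sham, were not called against young sham, where their log2 changes were 0.26 and 0.44 (limma adjusted p = 0.0936 and 0.113). Isg15 was not called in any of the 3 comparisons, and its 9 levels ran from 7.23 FPKM in young sham replicate 3 to 14.2 FPKM in aged injury replicate 3.

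Levels of the members and of leukocyte transcripts are set side by side here by library. The mean log2 level of the 32 members above the young mean was 0.21, 0.07 and -0.28 in young sham, 0.28, 0.22 and 0.28 in aged sham, and 0.86, 0.76 and 0.65 in aged injury. Aged injury replicate 1 was the highest, and held the highest level of all 9 libraries in 21 of 33 members. For T and NK cell genes the same measure was 0.91, 3.90 and 2.10 in aged sham and 1.36, 4.29 and 2.49 in aged injury, so that aged injury replicate 1 was the lowest of its group and aged injury replicate 2, second highest for the members, was the highest. B and plasma cell genes stood at 0.94, 4.14 and 2.68 and then at 1.97, 5.26 and 3.62, and macrophage genes at 0.47, 1.10 and 0.75 and then at 0.65, 1.03 and 0.89. Neutrophil genes stood at 0.91, 1.08 and 1.57 in aged sham and at 0.70, -0.07 and -0.18 in aged injury. Over the aged injury replicates their order was that of the members, while their level was lower than in aged sham.

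After injury 0 of 9 T and NK cell genes, 0 of 7 B and plasma cell genes and 1 of 10 macrophage genes were called higher by limma, with 0, 1 and 1 at an unadjusted p under 0.05. Voom called 0, 0 and 1, and by limma 3 of 7 neutrophil genes fell. For T and NK cell, B and plasma cell and macrophage genes, the log2 change was above 0 in 7 of 9, 7 of 7 and 6 of 10. The medians were 0.34, 0.73 and 0.06. The SE was 0.63 to 1.14 for T and NK cell genes and 0.74 to 1.17 for B and plasma cell genes. For members it was 0.064 to 0.44, so 0 calls in the lymphocyte lists do not show that their genes stayed even. The summed level of the T and NK cell list was 1.47 to 2.96 FPKM in young sham, 4.60 to 43.7 FPKM in aged sham and 7.52 to 58.2 FPKM in aged injury, and that of the B and plasma cell list, mostly Igkc, was 12.9 to 15.2, 75.3 to 587 and 269 to 2293 FPKM. The macrophage sum was 46.3 to 49.8, 75.7 to 125 and 82.7 to 118 FPKM. No defining marker of these lists was at 0 in every aged library: Cd3e, for example, was at 0.216 FPKM or more. For 6 genes of plasmacytoid dendritic cells, which make much type I interferon, the mean log2 level relative to young sham stood at -0.10, 0.95 and 1.01 in aged sham and at -0.39, 1.16 and 0.08 in aged injury. Among them Siglech was between 0.184 and 0.906 FPKM in the 9 libraries, while Ly6d reached 11.3 FPKM in aged sham replicate 2 and 11.9 FPKM in aged injury replicate 2. Cox6a2 was at 2.48, 0.954 and 6.37 FPKM in aged sham. In aged injury it was at 0.0941, 0.887 and 0.244 FPKM, lower without overlap and not called (limma adjusted p = 0.107). After injury the log2 change was above 0 in 4 of the 6 genes and below 0 in 2, so the list did not move as 1. Without aged sham replicate 2 and aged injury replicate 2, the libraries richest in lymphocyte transcripts, the median log2 change of the members after injury was 0.48. No member was then called by limma, with 16 at an unadjusted p under 0.05. The part of these cells in the members' levels was not tested.

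**Figure D4:**
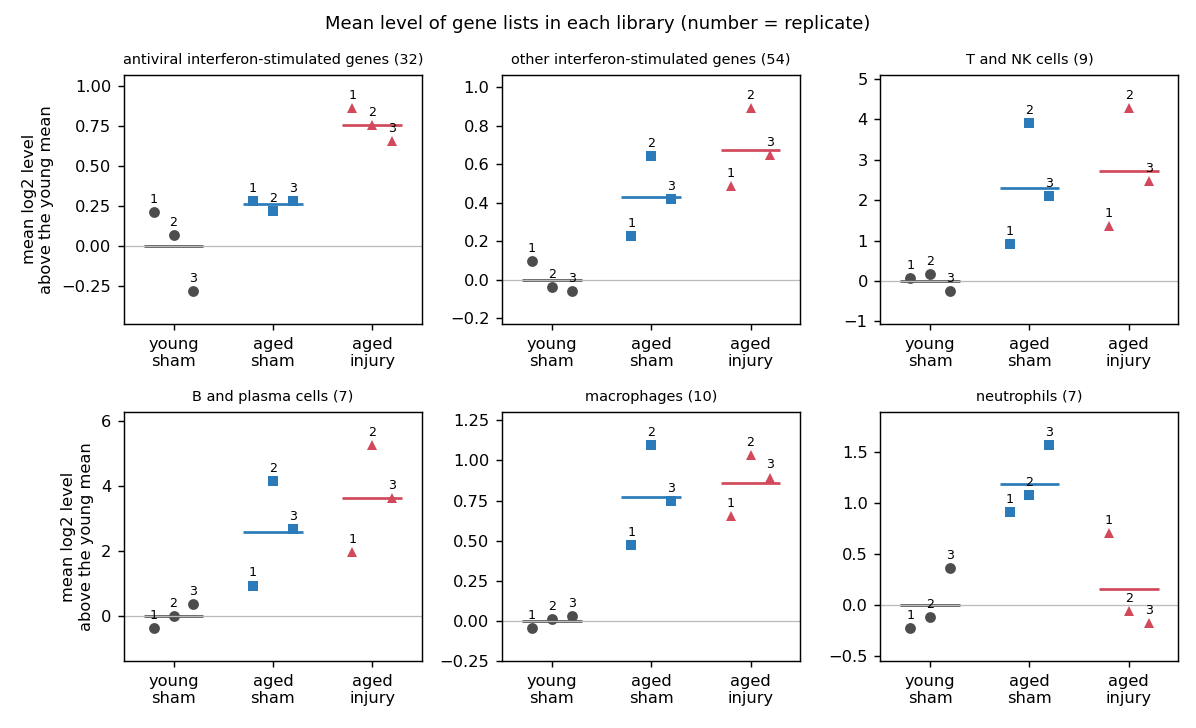
Mean log2 level above the young sham mean for 6 gene lists (number of genes in brackets) in each library, with the replicate number beside each point and a line at each group's mean. The members are highest in aged injury replicate 1, where T and NK cell and B and plasma cell genes are the lowest of the aged injury group, and second highest in aged injury replicate 2, where those genes are the highest. Neutrophil genes have the same order as the members over the aged injury replicates, but lie lower than in aged sham.

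The interferons themselves were scarcely detected. Of 21 listed interferon genes 17 were in the table, and 15 of those were listed at 0 in every library, Ifnb1 and all the matched alpha genes among them. Ifng, which encodes interferon gamma, was at 0 in young sham, between 0.0643 and 0.0743 FPKM in aged sham, and between 0.0513 and 0.242 FPKM in aged injury. With depth allowed for, the aged values other than that of aged injury replicate 2 were the same smallest step of reads. Such values near the floor do not show a graded rise. Ifnk was at 0.0906 FPKM in aged injury replicate 2 alone. None reached the level at which genes were tested.

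Of 10 receptor and proximal signalling genes 1 rose after injury. It was Jak2, the kinase of the interferon gamma receptor and of many cytokine receptors, at 6.92, 7.68 and 7.38 FPKM after sham and 10.9, 11.8 and 9.66 FPKM after injury (log2 change 0.55, limma adjusted p = 0.0123). Ifnar1 and Ifnar2 had log2 changes of 0.14 and 0.06 and did not pass. With age none of the 10 was called by limma or by voom, with 1 at an unadjusted p under 0.05.

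Of 20 genes that sense nucleic acid and induce interferon, 2 rose after injury. Aim2, a sensor of cytosolic DNA, had levels of 0.510, 0.563 and 0.599 FPKM in aged sham against 1.41, 2.02 and 1.92 FPKM in aged injury, or by 1.51 on the log2 scale (SE 0.20; adjusted p = 0.00691 with limma). Myd88, an adaptor of Toll-like receptors, rose by 0.50 (limma adjusted p = 0.0408). Tmem173, which encodes STING, an adaptor of cytosolic DNA sensing, was at 6.48, 6.27 and 6.17 FPKM and then at 12, 12.5 and 10.9 FPKM, far apart but not called (log2 change 0.89, limma adjusted p = 0.0559). With age none of the 20 was called by limma or by voom, although 10 had an unadjusted p under 0.05.

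Of 13 tested negative regulators 1 rose after injury, Socs3, an inhibitor of JAK kinases that many cytokines induce, from 6.74, 6.42 and 5.51 FPKM to 12.3, 11.0 and 13.3 FPKM (log2 change 0.96, limma adjusted p = 0.0283). Socs1, the related inhibitor of interferon receptors, had log2 changes of 1.02 with age (limma adjusted p = 0.0529) and 0.34 after injury (limma adjusted p = 0.506). The ISG15 conjugation list of 6 includes the members Isg15 and Usp18. Its conjugating enzyme Ube2l6 and ligase Herc6 were higher in aged than in young sham, by log2 changes of 0.24 and 0.48 (limma adjusted p = 0.0429 and 0.0390). In that comparison voom called 1 of the 6 higher. After injury none was called by limma or by voom, with 1 at an unadjusted p under 0.05.

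Outside the list, 54 other interferon-stimulated genes were tested. After injury 3 rose (5.56%): Slfn9, a Schlafen family gene, by 1.0, Cd274, the checkpoint ligand PD-L1, by 0.75, and Trafd1, a feedback regulator, by 0.43 (limma adjusted p = 0.0391, 0.0356 and 0.0278). In aged against young sham 2 were higher, Slfn1 by 1.23 and Phf11b by 1.06 (limma adjusted p = 0.0385 and 0.0323). Their median log2 change was 0.36 with age and 0.25 after injury, whereas that of the members was 0.21 and 0.46. In aged injury replicates 1, 2 and 3 the mean log2 level of these genes above the young mean was 0.49, 0.90 and 0.65, and that of the members was 0.86, 0.76 and 0.65. Whether the lists differ was not tested.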

How the data were processed

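The values are FPKM as deposited, per the file headers and the values, in 1 table of 45904 identifiers. TruSeq mRNA libraries, from RNA of integrity above 7.5, were read from both ends on a HiSeq, per the labels' protocols. The submitters' processing notes name the build mm10 and, with no role for each, the aligners TopHat2 2.0.12 and Bowtie2 2.2.3, the counter HTSeq 0.6.0, and limma 3.22.7 beside edgeR 3.8.6. Not given in the sources used here are annotation, strand setting and scaling.

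The 17601 genes that averaged 0.2 FPKM or more entered limma 3.58.1 (R 4.3.3) as log2(FPKM + 0.1), with a mean-variance trend. All 9 libraries entered 1 fit, tests were two-sided, and p-values were Benjamini-Hochberg adjusted over all genes tested. The p-values measure the spread between pools of 2 mice. Symbols and positions come from GENCODE M21 on the same build, and promoters from RefSeq. Reads were recovered where a multiple of up to 20000 brought a gene's values within 0.001 of whole reads (17578 genes, 99.9%). Data for 17601 genes were simulated for the injury comparison with independent noise in each library. Changes were placed only in genes that averaged 1 FPKM or more. Of these, 87% of 2-fold and 99% of 4-fold changes were called, with 5.58% false calls. Smaller changes and changes in genes of lower level were not simulated, so these rates do not cover members with such changes or levels.

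The members and lists were chosen with earlier results of these data known, so no test of a list is given. A fold change with its test is given for members called and for the 6 with the smallest p in each comparison, and of the pathway lists for genes called or otherwise up to 4 with the smallest p. Isg15, Ifit3, Cmpk2, Usp18, Irf7, Ifnar1, Ifnar2 and other members named with small changes were singled out after their values were seen. Alternatives changed the pseudocount, filter, scaling, samples in the fit, replicate block and weights, or left out libraries. Without the libraries richest in lymphocyte transcripts, and with voom on recovered reads, are alternatives chosen after seeing the data.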

Additional observations from a re-analysis of the deposited data

How the results depend on the processing

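The log2 changes of the members called, and of the 6 with the smallest p with age, kept their sign under each alternative that tested them. There were 20 such alternatives, and 19 for Mx1 and Zbp1 in aged injury against young sham. The number of members above 0 varied, with age from 23 to 28 against 27. Over all genes the balance of calls turned with the scaling, from 445 higher and 262 lower with age and 1444 and 860 against young sham. Without 1 library at a time, the count of members called ranged from 0 to 1 with age, from 0 to 8 after injury and from 11 to 23 for aged injury against young sham, and the count of all genes called ranged from 23 to 1536, from 151 to 740 and from 869 to 2365. With only the 2 groups compared in the fit, 4 members were called after injury, and over all genes 31 with age and 302 after injury. Array weights called 1 member with age, Rtp4, which was lower, and over all genes 2020 with age and 3755 against young sham. Voom on recovered reads called 1 member with age and 16 after injury, and 1072 genes with age. With a mean of at least 1 FPKM 1 member, Bst2, was called with age, and with no filter 239 genes were. Without both libraries richest in lymphocyte transcripts, limma called 0 members after injury (16 at an unadjusted p under 0.05) and 8 against young sham, and over all genes 28, 43 and 1024 in the 3 comparisons. Equal medians gave 281 genes higher and 536 lower with age, 287 and 294 after injury, and 1029 and 1670 against young sham; quantile normalization gave 388 and 509 with age and 1168 and 1241 against young sham. Members called against young sham were 21 higher and 1 lower with equal medians, and 19 and 1 after quantile normalization.

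With the replicate number as a block, limma called 5 members after injury (Ifit1, Ifit2, Rsad2, Rtp4 and Trim30a), 273 genes after injury and 101 with age. The labels do not say whether libraries of the same number share a mouse, litter or day. Between aged sham and aged injury, the correlations of same-numbered libraries were 0.0625 to 0.270, above 0.1 in 2 of 3 pairs. There, 6 of 6 libraries correlated best with their own number, so a shared factor is possible, and what it would be was not tested. The correlations of same-numbered libraries in the other comparisons were below 0.

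Depth limits the lowest members: Oas3 had 7 to 15 recovered reads per library, Oas2 8 to 37 and Mx1 9 to 72, as lower bounds up to a common factor per gene.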

Other observations

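Changes after injury were unequal within 2 pairs of members that lie close together. The pairs were picked after their values were seen, so the ratios are a description with no test. The level of Rsad2 relative to its head-to-head neighbour Cmpk2 was between 0.253 and 0.460 in the 6 sham libraries and was 1.13, 0.609 and 0.790 in the aged injury libraries. The level of Ifit1 relative to Ifit3, both of which hold 2 response elements before the start, was between 0.753 and 1.23 in the sham libraries and was 3.04, 1.56 and 1.96 in the aged injury libraries. Both ratios were higher in every injury library than in any sham library, and both were highest in aged injury replicate 1. A ratio within libraries shows that the pair changed unequally and not that either gene stayed the same.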
